A study of Homo sapiens with 4 samples.

Results

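The aldo-keto reductases AKR1A1, AKR1B1, AKR1B10, AKR1C1, AKR1C2 and AKR1C3 and the ABCC exporters ABCC1, ABCC2, ABCC3 and ABCC4 were followed through 23 probe sets of an Affymetrix expression array, out of 54613 that are not controls. Members were all probe sets that the platform annotation pairs with one of these 10 genes. Of the 23, 11 belong to aldo-keto reductases and 12 to ABCC exporters, and 8 of the 10 genes had at least 1, out of 19775 genes on the array. For AKR1A1 and AKR1B1 no probe set is paired in the annotation used here, and they were not analysed. Each probe set was kept apart, because the transcripts of AKR1C genes are so alike that a probe set named for one can bind another. The probe set 1555854_at is annotated to both AKR1C1 and AKR1C2.

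The arrays held total RNA of SKOV3, an established cell line from a human ovarian carcinoma. There were 2 arrays of cells treated with rhSTIP1, read as recombinant human STIP1, a cochaperone of HSP70 and HSP90 that cells also secrete, and 2 arrays of control cells without it. Every array came from this 1 line, the sources used here give neither dose nor duration, and nothing in the labels says that replicate arrays had cultures of their own. The spread between them may therefore be technical. The genes were selected on signals of these 4 arrays, as a family whose values in this same contrast were already known, so their differences between the groups are given as a description and were not tested.

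Aldo-keto reductases use NADPH to turn aldehydes and ketones into alcohols. AKR1C1 inactivates progesterone, AKR1C2 inactivates dihydrotestosterone, AKR1C3 makes testosterone and prostaglandin F, and AKR1B10 reduces retinal and other reactive aldehydes. ABCC proteins, also called multidrug resistance proteins, burn ATP to pump organic anions out of the cell, among them drugs joined to glutathione or glucuronic acid. Several genes of both families are known targets of the transcription factor NRF2, encoded by NFE2L2, which binds antioxidant response elements when electrophiles disable its inhibitor KEAP1.

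AKR1C1 and AKR1C2 are nearly identical in the bases before their starts, and AKR1C3 is less like them. AKR1C1, AKR1C2 and AKR1C3 follow each other on chromosome 10 in that order. The RefSeq promoter table (GRCh38.p14) held 7 of the 10 members in 9 windows, and AKR1B10, ABCC1 and ABCC3 were not among them. The 250 bases before the start of AKR1C1 (chr10:4963165-4963414, plus strand) and of AKR1C2 (chr10:5003858-5004107, minus strand) are shown because 1555854_at is annotated to both genes. Bases before a start do not show where probes bind. Capitals mark letters that differ from the other gene or have no partner in it.
AKR1C1: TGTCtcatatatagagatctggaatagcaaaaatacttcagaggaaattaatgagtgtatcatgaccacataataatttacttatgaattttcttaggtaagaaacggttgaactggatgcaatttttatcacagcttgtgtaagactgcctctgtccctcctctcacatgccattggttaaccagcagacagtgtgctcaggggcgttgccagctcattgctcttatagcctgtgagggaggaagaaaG
AKR1C2: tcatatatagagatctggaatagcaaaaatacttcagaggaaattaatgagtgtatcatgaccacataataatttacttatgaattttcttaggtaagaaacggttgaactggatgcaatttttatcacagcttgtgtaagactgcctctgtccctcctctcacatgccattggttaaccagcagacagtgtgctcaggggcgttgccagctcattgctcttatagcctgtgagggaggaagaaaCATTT
These windows shared 245 of 250 letters (98.0%), with 1 substituted and 4 at an end of each left without a partner, so the windows are nearly the same sequence set 4 bases apart. AKR1C3 has 2 start windows, and the one closer to AKR1C1 (chr10:5048531-5048780, plus strand) is shown for contrast, with capitals where it differs from AKR1C1.
AKR1C3: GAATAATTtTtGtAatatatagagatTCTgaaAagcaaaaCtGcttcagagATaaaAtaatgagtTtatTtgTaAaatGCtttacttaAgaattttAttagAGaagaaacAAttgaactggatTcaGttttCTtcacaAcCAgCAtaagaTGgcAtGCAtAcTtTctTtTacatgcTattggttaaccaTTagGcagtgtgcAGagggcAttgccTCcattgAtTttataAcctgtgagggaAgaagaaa
It shared 185 of 250 letters with AKR1C1 (74.0%), and the other start window of AKR1C3 shared 184. The core of the antioxidant response element, TGACNNNGC on either strand, lay in 1 of the 9 windows of 300 bases (250 before the start and 50 after), against 13.3% of all 35116 windows in the table. That window belonged to ABCC4 (chr13:95301452-95301701 for the 250 bases before the start, minus strand), where the capitals mark the match, which lies on the strand opposite to the gene.
ABCC4: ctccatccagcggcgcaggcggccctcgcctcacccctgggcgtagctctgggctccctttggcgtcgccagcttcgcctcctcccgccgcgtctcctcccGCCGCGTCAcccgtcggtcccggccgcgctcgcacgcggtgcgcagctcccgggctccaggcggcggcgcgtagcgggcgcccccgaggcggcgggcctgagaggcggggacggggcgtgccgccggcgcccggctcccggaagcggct
The AP-1 motif TGANTCA lay in 0 of the 9 windows and in 7.71% of all. The GC-rich motif GGCGCC, bound by SMAD1 and SMAD5, lay in 3 of the 9, those of AKR1A1, ABCC4 and 1 of 2 of AKR1B1, and in 19.2% of all. None of these motifs overlapped another in the member windows. Matches describe letters in these windows only, and elements farther upstream were not searched.

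The arrays correlated with each other at 0.951 to 0.974 over 27307 probe sets. The ratio of 3′ to 5′ signal of ACTB, a measure of RNA degradation, was 8.79 on rhSTIP1 array 2 and 2.62 on rhSTIP1 array 1, against 2.74 and 2.45 on the control arrays, while that of GAPDH stayed between 0.987 and 1.32. The cells carried epithelial markers, 6 of 6 over the filter (a mean signal of 69.4, the median of all probe sets), with summed signals of 38063 and 33730 on the rhSTIP1 arrays and 33054 and 30460 on the control arrays. Among ovarian and SKOV3 markers 5 of 6 passed, ERBB2 and PAX8 included, and MUC16 stayed under it with signals of 14.2 and 7.64 against 5.47 and 8.64. Leukocyte markers passed in 0 of 4, with sums of 88.6 and 192 against 112 and 103, endothelial in 1 of 4 (354 and 206 against 199 and 212), fibroblast in 3 of 6 (564 and 364 against 602 and 327) and hepatocyte in 1 of 4, SERPINA1 (sums of 2509 and 791 against 3302 and 957). In bulk RNA, a change in the number of cells that express a gene and a change in RNA per cell cannot be told apart.

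The AKR1C genes were higher with rhSTIP1 in every probe set by the group means. Of 10 AKR1C probe sets, 7 were separated, meaning that both rhSTIP1 arrays lay above both control arrays and the groups differed by at least 1.5-fold on the log2(signal + 16) scale. Over all 54613 probe sets, 4.85% were separated in this direction and 7.1% in the other. The median log2 fold change of the 10 was 1.03, against −0.01 over all probe sets. Both rested in part on control array 1, without which the median was 0.51 and 1 AKR1C probe set was separated. The scale understates the change of dim probe sets. The ± gives the standard error from the fit across the probe sets over the filter. For members under the filter it comes from a fit without the filter.

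The largest difference of any member was in the AKR1C1 probe set 217626_at. Its signals were 889 and 1406 on the rhSTIP1 arrays, against 58.0 and 239 on the control arrays. The log2 fold change was 3.04 ± 0.55, or 8.25-fold, and the lower rhSTIP1 array lay far above the higher control. Without control array 1 it was 2.15 and still separated. The bright AKR1C1 probe set 204151_x_at had signals of 22690.5 and 24757 with rhSTIP1, against 9948 and 21143 in the controls. Here the groups were close, because control array 2 came near the rhSTIP1 arrays, and the log2 fold change was 0.71 ± 0.31. The other bright one, 216594_x_at, had 20681 and 20359.7 with rhSTIP1, against 9218 and 17020.0 in the controls, again 0.71 ± 0.27. Without control array 1 these 2 values were 0.16 and 0.27, under 1.5-fold. The suffix x marks probe sets that the maker of the array expected to bind several sequences, so these signals may pool AKR1C1 with its paralogs.

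The remaining AKR1C1 probe sets were dim and their groups overlapped. Signals of 1555855_at were 44.1 and 184 with rhSTIP1, against 27.0 and 44.7 in the controls (log2 fold change 1.10 ± 0.62). Those of 1555856_s_at were 104 and 426 with rhSTIP1, against 50.5 and 120.0 in the controls (1.28 ± 0.63). In both, rhSTIP1 array 2 alone stood above the controls, and without that array the log2 fold changes were 0.23 and 0.34. This is the array with the high ACTB ratio, whose part in the result was not tested. The probe set shared by AKR1C1 and AKR1C2, 1555854_at, had 1612 and 2786 with rhSTIP1, against 246 and 1507 in the controls. Its log2 fold change was 1.76 ± 0.72, and it rested on control array 1, which was far below the other 3 arrays and without which the value was 0.49.

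AKR1C2 had 3 probe sets of its own. The probe set 209699_x_at had signals of 16638 and 18129.5 with rhSTIP1, against 5627 and 11974 in the controls, a log2 fold change of 1.08 ± 0.32 or 2.11-fold. For 211653_x_at they were 17902.5 and 20904 with rhSTIP1, against 7369 and 13147 in the controls (0.97 ± 0.27, 1.96-fold). In these 2 probe sets both controls lay clearly below both rhSTIP1 arrays, by more than in the bright AKR1C1 sets, although cross-binding between the paralogs limits what is assigned to either gene. Without control array 1 they had 0.54 and 0.56, just under 1.5-fold. The dim 244266_at, under the filter, had 85.0 and 50.4 with rhSTIP1, against 10.9 and 98.1 in the controls (0.56 ± 0.73), its groups overlapped, and it was at −0.48 without control array 1.

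AKR1C3 was measured by 1 probe set, 209160_at, whose signals were 20440 and 21663 with rhSTIP1, against 10744 and 15725 in the controls. Its log2 fold change was 0.69 ± 0.21 or 1.62-fold, with the smallest standard error among the 11 aldo-keto reductase probe sets, and it was 0.42 without control array 1. AKR1B10 had 111 and 221 with rhSTIP1, against 65.3 and 115 in the controls. The groups overlapped for AKR1B10, as control array 2 lay just above rhSTIP1 array 1, and the log2 fold change was 0.75 ± 0.43. Leaving out control array 1 gave 0.41, and leaving out rhSTIP1 array 2, where the ACTB ratio was 8.79, gave 0.30.

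**Figure D1:**
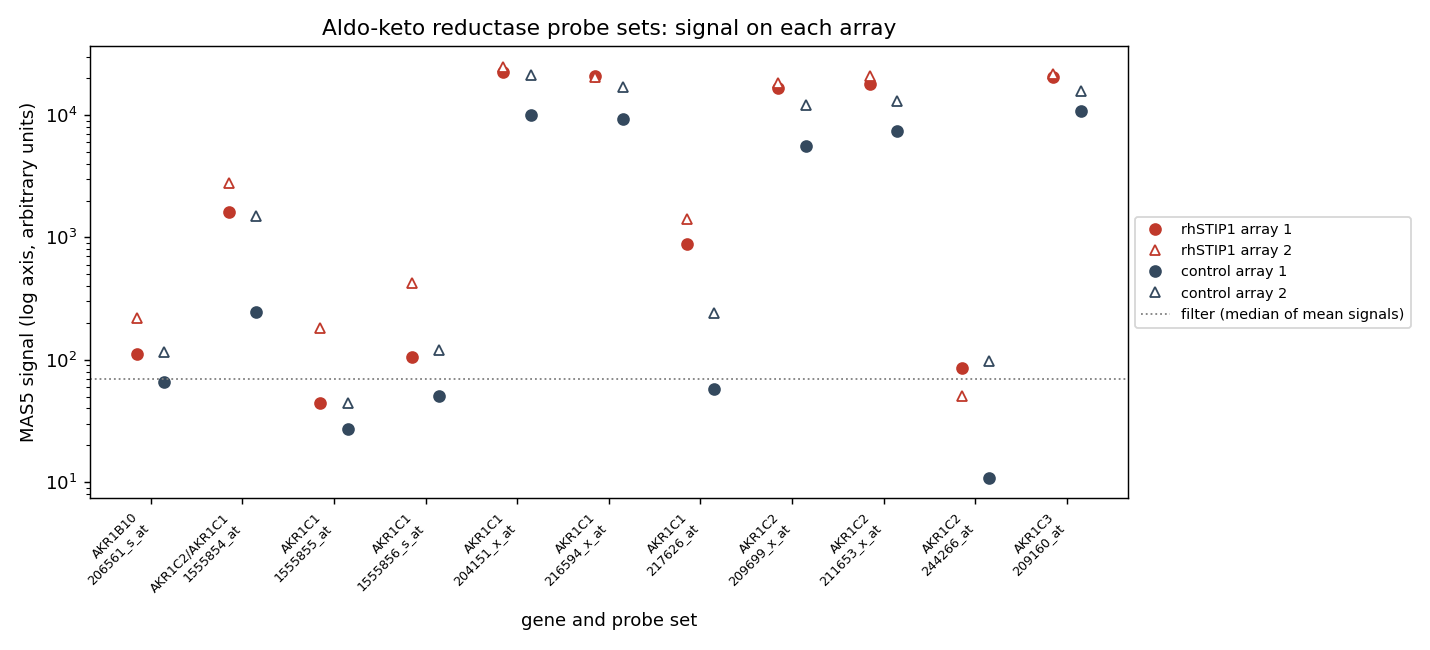
Signal on a log axis (MAS5, arbitrary units) of the 11 aldo-keto reductase probe sets on each of the 4 arrays, with rhSTIP1 in red to the left of control in dark blue; filled circles are array 1, open triangles array 2, and the dotted line is the filter at 69.4. Control array 1 is the lowest point for all 11 probe sets, and 217626_at shows the widest gap between the groups.

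ABCC exporters had smaller fold changes by the median, a difference between the families that was not tested. Of 12 probe sets, 1 was separated, for ABCC3, and the median log2 fold change was 0.36, or 0.10 without control array 1. ABCC3, which exports glucuronides and bile acids across the basolateral membrane, had 5 probe sets, all with a log2 fold change above 0, from 0.42 to 0.81. The separated one, 208161_s_at, had signals of 2292 and 2806 with rhSTIP1, against 1033 and 2006 in the controls (0.81 ± 0.34, 1.75-fold), and without control array 1 it had 0.34. In 209641_s_at they were 796 and 1190 with rhSTIP1, against 407 and 967 in the controls (0.62 ± 0.42), so that control array 2 lay between the rhSTIP1 arrays. In 230682_x_at they were 273 and 386 with rhSTIP1, against 136 and 387 in the controls (0.46 ± 0.46), and control array 2 was the highest of the 4. The probe set 239217_x_at had 335 and 355 with rhSTIP1, against 248 and 259 in the controls, without overlap but by only 0.42 ± 0.27. The dim 242553_at had 33.2 and 178 with rhSTIP1, against 57.1 and 33.8 in the controls (0.69 ± 0.66), where rhSTIP1 array 2 alone was high. With single arrays left out, the direction changed in 230682_x_at and 242553_at but not in the other ABCC3 probe sets. In 208161_s_at and 239217_x_at it could not change, because their groups did not overlap. The most stable was 239217_x_at, from 0.38 to 0.46. Without control array 1, 230682_x_at was at −0.24 and 209641_s_at at 0.01, and without rhSTIP1 array 2, 242553_at was at −0.29.

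ABCC1, the general exporter of glutathione conjugates, showed overlapping groups in both of its probe sets. Signals of 202804_at were 3555 and 5043 with rhSTIP1, against 3058 and 4493 in the controls (0.19 ± 0.28). Those of 202805_s_at were 696 and 810 with rhSTIP1, against 522 and 931 in the controls (0.10 ± 0.33). ABCC4, which exports cyclic nucleotides and prostaglandins, had log2 fold changes from 0.14 to 0.42 over 4 probe sets, none separated. Its brightest, 203196_at, had 1080 and 1490 with rhSTIP1, against 1079 and 1232 in the controls, so the lower array of each group was at the same level. In 1554918_a_at signals were 193 and 204 with rhSTIP1, against 175 and 180.0 in the controls (0.15 ± 0.29), and in 1555039_a_at 73.0 and 99.7 with rhSTIP1, against 50.1 and 71.3 in the controls (0.42 ± 0.41). Both kept the groups apart by less than 1.5-fold. The fourth probe set, 243928_s_at, was under the filter with 28.5 and 9.79 with rhSTIP1, against 16.8 and 6.91 in the controls. ABCC2, the apical pump for bilirubin glucuronide, was at 3.58 and 4.52 with rhSTIP1, against 6.73 and 3.06 in the controls, far under the filter, and its log2 difference of −0.05 ± 0.26 cannot be read as a change.

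**Figure D2:**
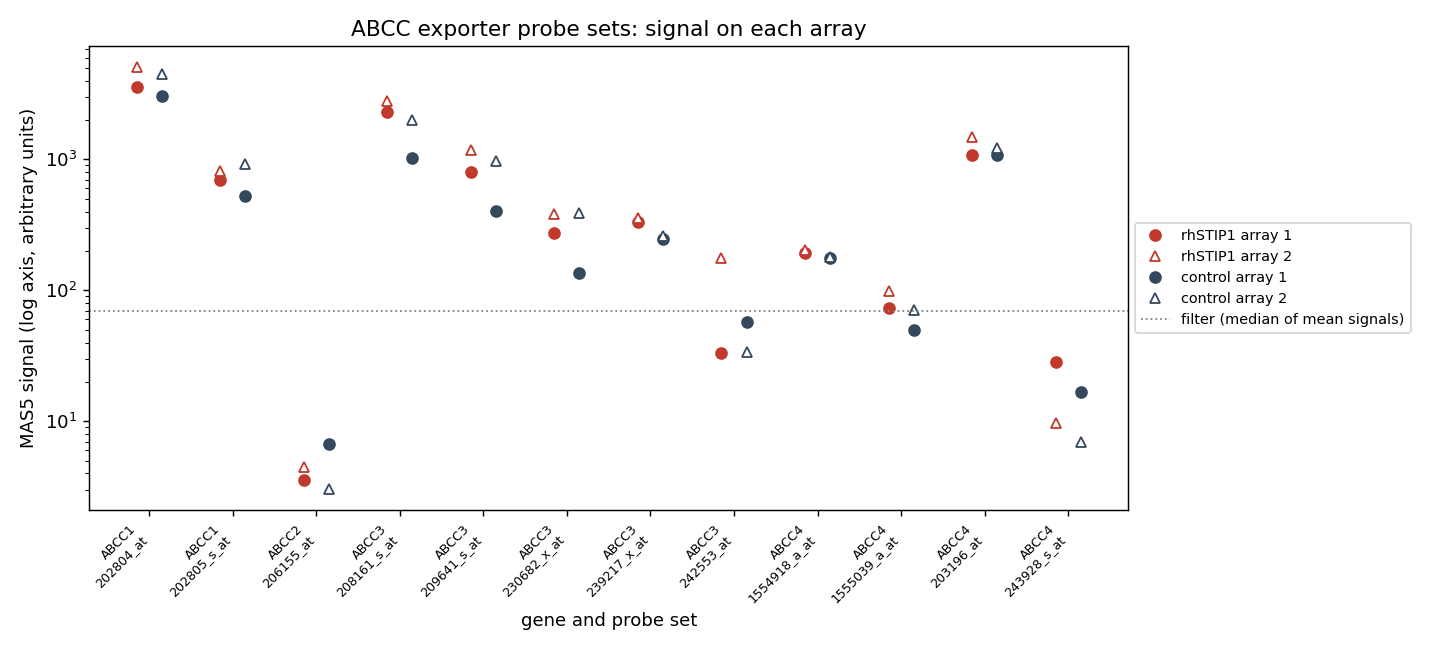
Signal on a log axis (MAS5, arbitrary units) of the 12 ABCC probe sets on each array, with rhSTIP1 in red to the left of control in dark blue; filled circles are array 1, open triangles array 2, and the dotted line is the filter at 69.4. Only 208161_s_at of ABCC3 keeps the groups apart by at least 1.5-fold, and ABCC2 lies far below the filter.

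Taking the 23 probe sets as they are, 22 had a log2 fold change above 0 and 1 below, and the median was 0.69. Leaving out control array 1 gave a median of 0.34, as did leaving out rhSTIP1 array 2, and leaving out control array 2 gave 1.15. Of all 54613 probe sets 48.3% were above 0. The groups did not overlap for 11 members, all higher with rhSTIP1, where 13.4% of all probe sets lay without overlap in that direction and 16.4% in the other. Separated by at least 1.5-fold were 8 members, all higher, and 1 without control array 1. Nothing is read from these shares, since the members were chosen with the contrast known and several probe sets measure the same transcripts. The filter, a mean signal of 69.4, kept 20 of the 23. In the fit across the 27307 probe sets that passed it, limma called 0 (0%) at an adjusted p of 0.05, the smallest adjusted p of any probe set was 0.154, and 878 had an unadjusted p under 0.05, 247 higher (0.905%) and 631 lower (2.31%). Of those 27307, 564 were separated higher (2.07%) and 1189 lower (4.35%), and with median centring 778 and 897. Median centring also gave 10 members separated higher in place of 8. The median signal was 79.2 on control array 2, against 66.0 to 69.0 on the other arrays, and its part in these counts was not tested.

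**Figure D3:**
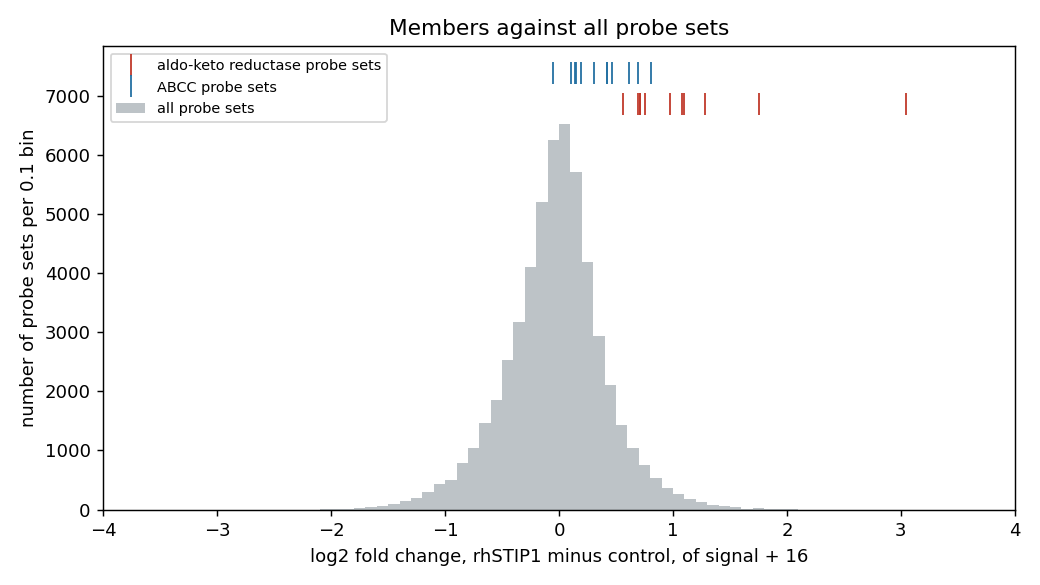
Histogram of the log2 fold change (rhSTIP1 minus control, of signal + 16) over all 54613 probe sets in bins of 0.1, with red ticks for the 11 aldo-keto reductase probe sets and blue ticks for the 12 ABCC probe sets above it. The red ticks run from 0.56 to 3.04 and the blue from −0.05 to 0.81.

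For the AKR1C genes the control arrays differed from each other about as much as the groups did. Control array 2 lay above control array 1 in all 10 AKR1C probe sets, by a median of 1.06 on the log2 scale, against 0.11 over all probe sets. Control array 1 was the lowest of the 4 arrays for 11 of 11 aldo-keto reductase and 9 of 12 ABCC probe sets, and for 30.5% of all. The rhSTIP1 arrays were closer to each other, array 2 above array 1 by a median of 0.17 over the AKR1C probe sets. Without control array 1 the median of the AKR1C probe sets was 0.51 and 1 member stayed separated, 217626_at of AKR1C1. Without control array 2 the AKR1C median was 1.499 and 15 members were separated, without rhSTIP1 array 1 it was 1.11 with 14, and without rhSTIP1 array 2 it was 0.79 with 9. With 1 array left out fewer values need to be apart, so these counts are not on the same footing as the 8.

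**Figure D4:**
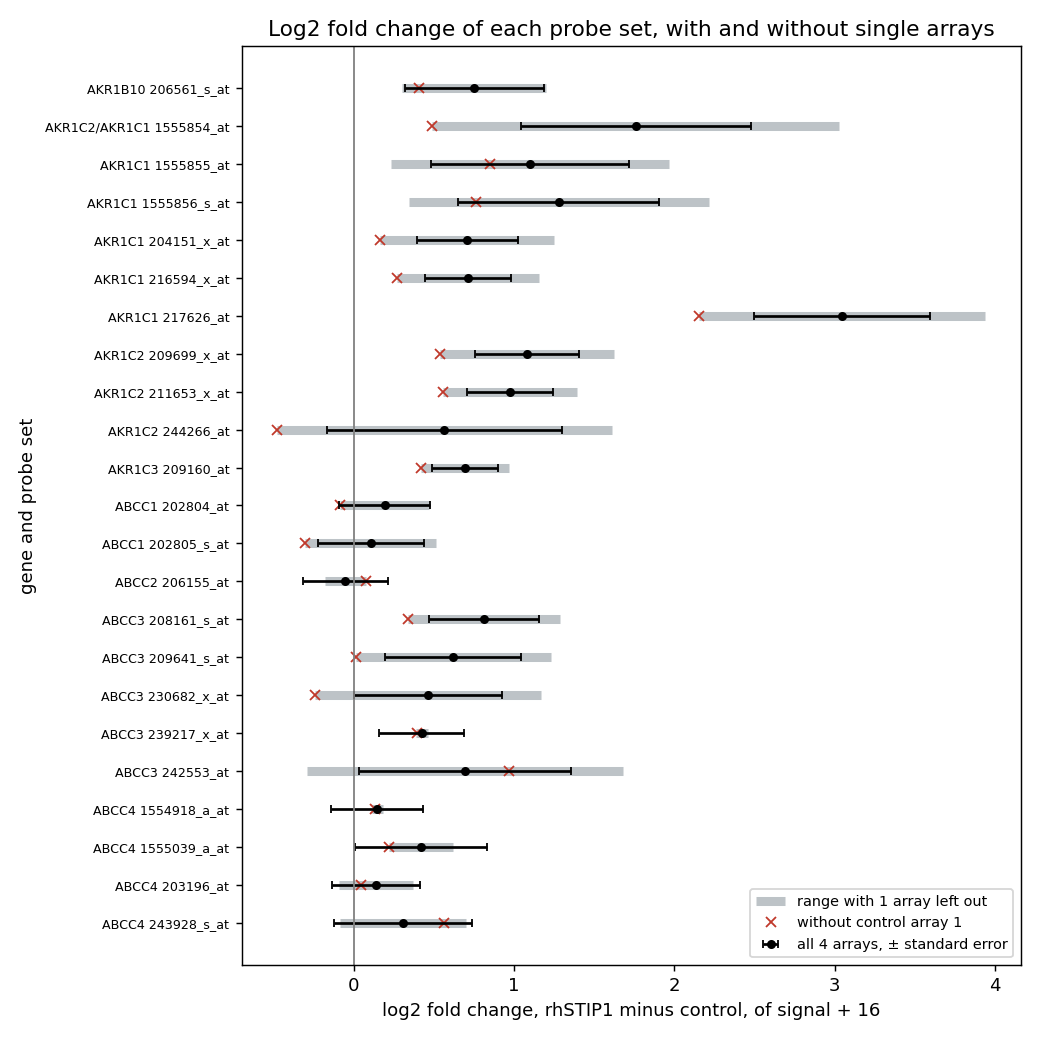
Log2 fold change (rhSTIP1 minus control, of signal + 16) of the 23 probe sets; black points with bars are all 4 arrays ± standard error, grey bars span the values with 1 array left out, and red crosses are the values without control array 1. The cross of 217626_at stays at 2.15, whereas those of the other AKR1C probe sets lie at 0.85 or below.

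AKR1B10 had the widest range of any member's brightest probe set, 1.55 on the log2 scale. Of 11949 other genes the 5 nearest to it, by Euclidean distance between log2 values centred on their mean over the 4 arrays, were SMARCD3 (0.07), AP1G2 (0.09), TKTL1 (0.12), NIPAL3 (0.15) and SELENOP (0.19). SMARCD3, a subunit of a chromatin remodelling complex, had signals of 164 and 297 with rhSTIP1, against 93.3 and 161 in the controls. With only 4 arrays 189 genes lay within a distance of 0.5, and nearness does not mean the same order of arrays: in SMARCD3 rhSTIP1 array 1 lay just above control array 2, in AKR1B10 just below it.

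Among tested genes around the members in the same pathways, 1 was separated, and it was lower with rhSTIP1. In the limma fit 0 of the 27307 probe sets over the filter passed, those of the 47 tested genes of 6 lists among them. Of the 47, 0 were separated higher and 1 was separated lower, beside 1.9% higher and 3.79% lower over all 12296 tested genes. For 47 genes these counts lie near those shares, and nothing is read from them. The separated gene was AHR, the receptor for dioxin-like compounds, with signals of 773 and 1041 with rhSTIP1, against 1214 and 1770 in the controls (−0.70 ± 0.30). Among other detoxifying enzymes 22 of 24 were tested, 16 above 0, with a median log2 fold change of 0.07. NQO1, a quinone reductase and a standard NRF2 target, had 16802.5 and 14802 with rhSTIP1, against 13821 and 13347 in the controls, without overlap but by 0.22 ± 0.16. In the same list UGDH (0.55 ± 0.24) and ALDH2 (0.50 ± 0.27) were also higher without overlap, by just under 1.5-fold, and PTGR1 by 0.08 ± 0.19. CBR4 was lower without overlap (−0.24 ± 0.25). In the other lists MAFF (0.23 ± 0.20) and SRD5A1 (0.19 ± 0.25) were higher without overlap. Over all probe sets 13.4% lay without overlap higher and 16.4% lower, and these genes are given as a description. In the list of NRF2 control and xenobiotic receptors (12 tested, 8 above 0, median 0.09), NFE2L2 had 7447 and 12952 with rhSTIP1, against 9031 and 12943 in the controls (−0.14 ± 0.30), and KEAP1 had 2059 and 2387 with rhSTIP1, against 1579 and 2272 in the controls (0.22 ± 0.27). These are transcript levels and do not show NRF2 protein or activity. Of the other aldo-keto reductases 2 of 8 were tested, AKR7A2 (−0.03 ± 0.29) and AKR7A3 (0.03 ± 0.33), and AKR1C4, the liver paralog, was dim with 18.9 and 31.9 with rhSTIP1, against 26.3 and 52.9 in the controls. Of the other ABCC proteins 2 of 8 were tested, ABCC5 (0.11 ± 0.28) and ABCC10 (−0.06 ± 0.28). Among other drug efflux genes 2 of 6 were tested, with a median of 0.19, and ABCG2 was dim with 39.2 and 49.0 with rhSTIP1, against 32.2 and 54.6 in the controls. Polyol, prostaglandin and steroid partners had 7 of 16 tested, 4 above 0, with a median of 0.00.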

How the data were processed

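RNA of 2 rhSTIP1 and 2 control samples of SKOV3 cells was measured on 4 Affymetrix arrays. The deposited values are linear intensities. The submitters' processing notes name MAS5 and Affymetrix Expression Console 1.1. This method treats and scales each array alone, and the trimmed mean was 500.1 on every array, so values compare between arrays but not between probe sets. No detection calls were used here. Of 54675 probe sets 62 were controls. Gene names came from the platform annotation, updated through gene identifiers to the GRCh38.p14 gene table. The contrast was fitted with limma 3.58.1 (lmFit, eBayes with trend; R 4.3.3), two-sided, Benjamini-Hochberg adjusted, on log2(signal + 16), over 27307 probe sets with a mean of at least the median of all means, 69.4. Members under it have a fold change and standard error from the unfiltered fit. List genes were read at their brightest probe set with 1 symbol. An exact two-sided permutation test of 2 against 2 arrays cannot give a p below 0.333. The steps were tested on simulated data. Members and lists were chosen with earlier results of these data known. Named genes were all members, AHR as the only tested list gene that was separated, NFE2L2, KEAP1, NQO1 and the 5 nearest to the member of widest range. List genes separated only with no filter are named where that run is described. AKR7A2, AKR7A3, AKR1C4, ABCC5, ABCC10, ABCG2, UGDH, ALDH2, PTGR1, CBR4, MAFF, SRD5A1 and the markers ERBB2, PAX8, MUC16 and SERPINA1 were added after their values were seen. Alternatives covered pseudocount, filter, scaling, block, eBayes settings, 1 probe set per gene and each array left out. The number of arrays limits the precision.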

Additional observations from a re-analysis of the deposited data

How the results depend on the processing

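The 7 separated AKR1C probe sets had log2 fold changes from 0.75 to 3.10 with median centring and from 0.59 to 3.06 with quantile normalization. Groups without overlap cannot change sign with another pseudocount or with 1 array left out, so those runs do not test the direction. The filters, the block and the eBayes settings leave each member's fold change as it is by construction. With 1 array left out, 244266_at of AKR1C2 ran from −0.48 to 1.61 and 1555854_at from 0.49 to 3.03. Probe sets separated higher and lower over all were 339 and 775 with a pseudocount of 64, 2650 and 3877 with no filter, 220 and 540 with the filter at the 70th percentile and 234 and 466 with 1 probe set per gene. Those with an unadjusted p under 0.05 numbered 2160 with no filter, 527 at the 70th percentile and 452 with 1 probe set per gene, where 4 members were separated. With no filter 6 pathway genes were separated lower, and with median centring 1 was separated higher. The 6 were AHR and AKR1D1, AKR1E2, CFTR, ABCB4 and SULT1E1. All but AHR had a mean signal under the filter and cannot be read as a change. With 1 array left out, the calls at an adjusted p of 0.05 ran from 1 to 7, those with an unadjusted p under 0.05 from 710 to 1604, probe sets separated higher from 987 to 2352 and lower from 2183 to 2470, members separated higher from 1 without control array 1 up to 15 when control array 2 was dropped, pathway genes separated higher from 0 to 6 and lower from 1 to 2, and the AKR1C median from 0.51 to 1.499. The lone array of a group is then assumed to vary like the other group. With the replicate number as a block, 261 probe sets passed an adjusted p of 0.05 (0.956%), 5 of them members, and 2208 had an unadjusted p under 0.05. The members were chosen with this contrast known, so these 5 are no test of them and nothing is read from their number. Same-numbered arrays deviated together with a correlation of 0.35 over 27307 probe sets, but the labels do not say that a number marks a shared culture, so the numbers were not used as pairs. Dim probe sets are limited by the lack of detection calls, and the cause of these shifts was not tested.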
